A study of Rattus norvegicus with 6 samples.

Results

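The genes described here are 8 genes that neutrophils use or are known by: the alarmins S100a8 and S100a9, the granule genes Lcn2, Mmp8, Mmp9, Camp and Mpo, and the integrin subunit Itgam. They are defined by name, not by a signal, and the array carried 11 probes for them out of 41012, which stand for 36410 transcript accessions. RNA came from formaldehyde-fixed, paraffin-embedded spinal cord sections of adult Lewis rats and was measured on 6 one-colour arrays, 1 array per group. ENMO rats (experimental neuromyelitis optica) had received T cells specific for myelin basic protein and then NMO-IgG, a human IgG preparation from patient plasma that holds antibodies to the water channel aquaporin-4. EAEcoI rats (experimental autoimmune encephalomyelitis with control IgG) had received the same kind of T cells and commercial normal human IgG, and EAEcoP rats the T cells and PBS. The other groups, called non-T below, were NMO-IgG only, control IgG only and an untreated healthy control. T cells were given on day 0 and antibody or PBS on day 4, and these rats were killed 24 h later, on day 5. Each array held sections pooled from 5 rats, or from 3 for the healthy control. The healthy control received no PBS, so it differs from EAEcoP in the injection as well as in the T cells.

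Neutrophils carry antimicrobial and tissue-degrading proteins in several kinds of granule, and they are known to enter the lesions of neuromyelitis optica. Azurophil granules are known for myeloperoxidase (Mpo), specific granules for lipocalin-2 (Lcn2), cathelicidin (Camp) and collagenase (Mmp8), and gelatinase granules for Mmp9. S100a8 and S100a9 together form calprotectin, an abundant cytosolic protein that acts as an alarmin when released. Most granule genes are transcribed in the bone marrow, before the mature cell leaves it. Lcn2 is also made by reactive astrocytes and Itgam (CD11b) also by microglia and macrophages. In pooled tissue RNA, fewer cells of a type and less RNA per cell cannot be told apart.

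Values are normalized signal intensities (NSI), the scanner's background-subtracted signals after quantile normalization of the 6 arrays. Signals of different probes cannot be compared as amounts of RNA. The share of spots well above background, the scanner software's own mark, was 60.2% in EAEcoP, 54.1% in EAEcoI and 44.4% in ENMO, and 35.4% to 41.7% in the non-T arrays. The dimmest signal that was well above background (the detection floor) was at an NSI of 5.59 to 8.19 on the T cell arrays and at up to 11.9 on the non-T arrays, which bears on every dim probe named here. Where a group lacked any array with such a signal, each of its arrays entered at its own signal or that floor, whichever was higher. The fold is then written as at least, though where the signals exceeded the floor it is the measured ratio. On the other side of the comparison every array entered at its own signal. Where one of those was not well above background, the fold is not a strict lower limit. Each array is the only one of its group. The spread between rats is therefore unknown, and p-values set the 3 T cell arrays against the 3 non-T arrays, whose antibodies differ. As a measure of technical error, spots repeated on an array were compared. Over the 263 probes printed in 10 spots their SD was 0.544 on the log2 scale, which makes 1.70-fold the size of 1 SD of a difference between single spots on 2 arrays.

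The probes are shown first because their reading direction decides which transcript strand they match. The S100a8 probe of the RefSeq transcript NM_053822 lay at chr2:182962328-182962387 in the coordinates of the array design, whose rat genome build is not given in the sources used here. A second pair of S100a8 probes, made from the sequence tag CA507495 and called a and b here, ran along the chromosome in the opposite direction, with probe a at chr2:182961489-182962022, a span longer than the probe, and probe b at chr2:182962043-182962102. The S100a9 probe lay at chr2:182987647-182987706. For Camp, too, the probe of NM_001100724 (chr8:114214987-114215046) and that of the tag CB577971 (chr8:114216548-114216607) ran in opposite directions. The Mpo probe lay at chr10:76094059-76094118. The 6 probes printed, of 60 bases each, are given 5′ to 3′ as in the deposited files.

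S100a8 NM_053822: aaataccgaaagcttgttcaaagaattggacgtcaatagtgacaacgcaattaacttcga
S100a8 CA507495 b: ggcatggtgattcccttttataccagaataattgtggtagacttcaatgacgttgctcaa
S100a9 NM_053587: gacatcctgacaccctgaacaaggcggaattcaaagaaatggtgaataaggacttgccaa
Camp NM_001100724: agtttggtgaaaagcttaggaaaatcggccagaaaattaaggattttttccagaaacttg
Camp CB577971: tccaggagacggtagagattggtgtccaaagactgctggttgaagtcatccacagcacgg
Mpo NM_001107036: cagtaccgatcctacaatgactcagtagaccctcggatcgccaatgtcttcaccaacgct

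Of the 8 genes, Lcn2 was the one whose signal was well above background with T cells and higher than without them on every array. The T cell values of S100a9 and Itgam also exceeded the non-T values, but not all of them were well above background. Mpo was measured on every array with overlapping signals, and Camp and Mmp8 were not well above background on any array. Of the 11 probes, 7 entered the tests because at least 1 array gave them a signal well above background. Those of Lcn2, S100a9 and Itgam entered through T cell arrays alone, the group where they are high, which limits what their p-values show. The Lcn2 probe was the only 1 of the 11 whose 3 T cell arrays all lay above the 3 non-T arrays, beside 6.82% of the 27331 tested probes with a value on all 6 arrays. An array counted as above only if its signal was well above background and also exceeded the signal and the detection floor of each non-T array. Probes that did not enter the tests could not count, so the like comparison is 1 of the 7 tested probes. So few probes cannot set that count apart from the background. None had all 3 lower, beside 5.16% of those probes. None of the 7 tested probes passed an adjusted p of 0.05 in limma's comparison of all T with all non-T arrays, and neither did any other of the 27488 probes tested (0% called). At an unadjusted p under 0.05 limma gave 3151 probes (11.5%), of which 2340 (8.51%) were higher with T cells.

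**Figure D1:**
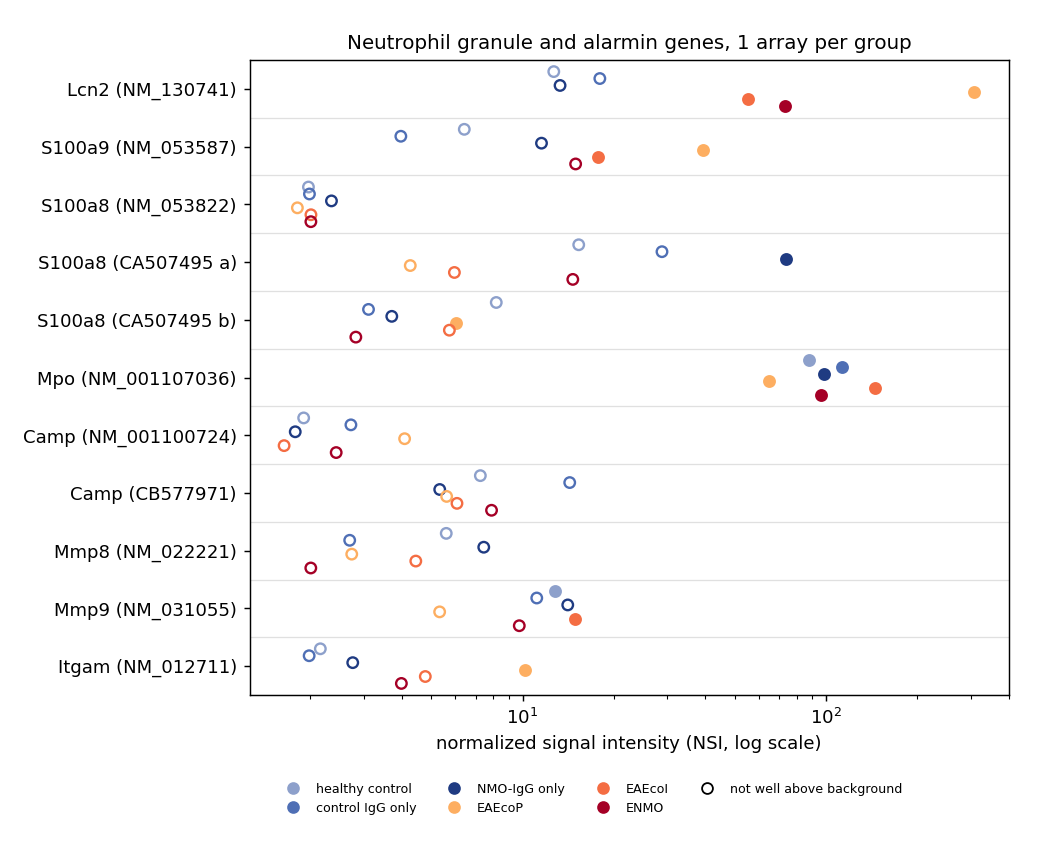
Normalized signal intensity (log scale) of every probe of the 8 genes, with 1 point per array, coloured by group. Filled points were well above background and open points were not. Lcn2 is filled on the 3 T cell arrays alone, and Mpo on all 6 arrays.

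Lcn2, whose protein binds the siderophores with which bacteria take up iron, had an NSI of 308 in EAEcoP, 73.3 in ENMO and 55.2 in EAEcoI. In the non-T arrays its NSI was 13.3 with NMO-IgG only, 18.0 with control IgG only and 12.7 in the healthy control, none of them well above background. The 2 sets of arrays did not overlap, and EAEcoP stood highest. Over all T against all non-T arrays Lcn2 was at least 7.44-fold higher (log2 difference 2.90, SE 0.694). Its unadjusted p of 0.00206 ranked 291 of 27488 in limma, and the adjusted p was 0.191. With all 41012 probes tested, dim ones included, limma's adjusted p was 0.268. Without EAEcoP the log2 difference was 2.14, still as a bound. It was 0.99 with another background correction, normexp with an offset of 50, which by construction compresses dim signals.

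Within pairs that shared an antibody, Lcn2 was at least 5.51-fold higher in ENMO than with NMO-IgG only and at least 3.07-fold higher in EAEcoI than with control IgG only. EAEcoP was at least 24.3-fold above the healthy control. All 3 pairs differed by more than 1.70-fold. The arrays lay on 2 slides, which were scanned separately. Within the slide of ENMO, EAEcoP and control IgG only, Lcn2 was at least 8.36-fold higher with T cells, and within the slide of EAEcoI, NMO-IgG only and the healthy control at least 4.25-fold higher. With the slide as a block in limma its log2 difference was 2.58 (adjusted p 0.27).

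Among the T cell arrays the order of Lcn2 was EAEcoI, ENMO, EAEcoP. ENMO was 1.33-fold above EAEcoI, which is within the spread of repeated spots, and 4.21-fold below EAEcoP. EAEcoI was 5.58-fold below EAEcoP. Against the mean of both EAE arrays ENMO was 1.78-fold lower (log2 difference -0.83), and that direction rested on EAEcoP, since against EAEcoI alone the log2 difference was 0.41. Each of these comparisons is 1 array against 1 or 2 and has no test.

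Lcn2 was also the only member whose upstream window held both motifs that were searched, NF-kB and C/EBP, factors known to act on neutrophil and acute-phase genes. In RefSeq's GRCr8 assembly the window around its transcription start lies at chr3:36081731-36082030 on the minus strand, from 250 bases before the start to 50 after it. The stretch shown, chr3:36081953-36082030, holds both matches, in capitals: the NF-kB consensus, read on the opposite strand, from 242 bases before the start, and the C/EBP motif TTGCNNAA from 191 bases before it.

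Lcn2 upstream: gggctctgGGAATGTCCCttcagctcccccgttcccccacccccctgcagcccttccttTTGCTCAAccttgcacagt

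Both strands were searched, and of 33469 rat windows of this length 6.15% held the NF-kB consensus and 10.6% the C/EBP motif. Among the other members the Mmp8 window held 2 matches to the C/EBP motif and the Itgam window 1, while those of S100a9, Camp and Mpo held neither motif. S100a8 and Mmp9 had no window to search. A match to these letters does not show that a factor binds there.

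S100a9 was measured at an NSI of 39.2 in EAEcoP, 17.8 in EAEcoI and 15.0 in ENMO, and of 11.5 with NMO-IgG only, 3.97 with control IgG only and 6.43 in the healthy control. Only EAEcoI and EAEcoP were well above background. All 3 T cell values lay above the non-T values, but the ENMO value was not well above background and is not counted as higher. As a bound, all T arrays were at least 1.90-fold above all non-T arrays, and the fitted log2 difference was 1.71 (SE 0.621, limma unadjusted p 0.0207, adjusted p 0.344). Without EAEcoP the bound was a log2 of 0.51, and with the normexp background correction 0.14. EAEcoP was at least 3.57-fold above the healthy control and at least 2.62-fold above ENMO. EAEcoI was 2.21-fold below EAEcoP.

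S100a8, the partner of S100a9 in calprotectin, was at an NSI of 1.81 to 2.35 on its transcript probe and was not well above background on any array. Its partner's difference thus has no counterpart that these arrays could measure. Probe a, which reads the opposite direction, gave an NSI of 14.6 for ENMO, 5.96 for EAEcoI and 4.27 for EAEcoP, and of 73.7 with NMO-IgG only, 28.8 with control IgG only and 15.3 in the healthy control. It was well above background with NMO-IgG only and on no other array. It entered the test through that array alone, and as a bound it was at least 4.00-fold lower with T cells (limma adjusted p 0.309). That bound is not strict, since control IgG only and the healthy control entered it at signals not well above background. Probe b lay between 2.82 and 8.19, well above background in EAEcoP alone. The 3 probes of S100a8 were thus well above background on different arrays or on none, and probe a alone allowed a fold with T cells. Only the transcript probe reads in the direction of the RefSeq transcript. Whether probes a and b measured S100a8 RNA or RNA of the opposite strand was not tested.

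Mpo, the enzyme that makes hypochlorous acid in azurophil granules, was highest in EAEcoI at an NSI of 145, with 96.7 in ENMO and 64.8 in EAEcoP. Without T cells it was 98.8 with NMO-IgG only, 113 with control IgG only and 87.7 in the healthy control. The groups overlapped, and the highest and the lowest signal were both from rats with T cells. The log2 difference of all T over all non-T arrays was -0.04 (SE 0.528, limma adjusted p 0.984), and that of ENMO over EAE was -0.00. The latter averages opposite differences, since the log2 difference was -0.59 against EAEcoI and 0.58 against EAEcoP. EAEcoI was 2.24-fold above EAEcoP, the reverse of their order for Lcn2 and S100a9. Within the 2 slides the log2 difference with T cells was -0.51 and 0.64. Mpo was the only member well above background on all 6 arrays. Over these 6 arrays, the named genes with the most similar profile of 6449 probes compared were Bicd2 (Pearson r 0.996), Armcx2 (0.985) and Gpr25 (0.984), which is a description of 6 points.

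Camp, the precursor of the cathelicidin peptide, lay at an NSI of 1.64 to 4.09 on its transcript probe and of 5.34 to 14.3 on the opposite probe. Mmp8, the neutrophil collagenase, lay at 2.01 to 7.45. None of these 3 probes was well above background on any array, so no fold is given for either gene. Such signals do not show that the transcripts were absent.

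Mmp9, the gelatinase of neutrophils, which macrophages also make, was printed in 10 spots and so has an error within each array. Its NSI was 14.9 in EAEcoI, 9.76 in ENMO and 5.33 in EAEcoP, and 14.1 with NMO-IgG only, 11.1 with control IgG only and 12.8 in the healthy control. EAEcoI and the healthy control were well above background. The SD between spots ran from 0.378 (log2, n = 10 spots) in EAEcoI to 1.04 (n = 10) in the healthy control. EAEcoP, with the lowest NSI, was nearly as even as EAEcoI (SD 0.392). In the healthy control the spots differed by position on the array. Up to row 257 they had intensities of 14.4 to 25.8, all well above background. From row 311 they had 3.62 to 7.91, none well above background. EAEcoI was also dimmer from row 311 (16.3 to 21.1 against 24.5 to 33.3), but NMO-IgG only was not. The part of position was not tested. The log2 difference of all T over all non-T arrays was -0.46 (limma adjusted p 0.755). The error of that difference from the spots alone was smaller (SE 0.163), but it takes the spots as independent, and the arrays overlapped. The log2 difference was -0.06 without EAEcoP, -0.77 without EAEcoI and -0.05 with the normexp background correction. EAEcoI, with 9 of 10 spots well above background, was at least 2.67-fold above EAEcoP with 3 of 10.

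**Figure D2:**
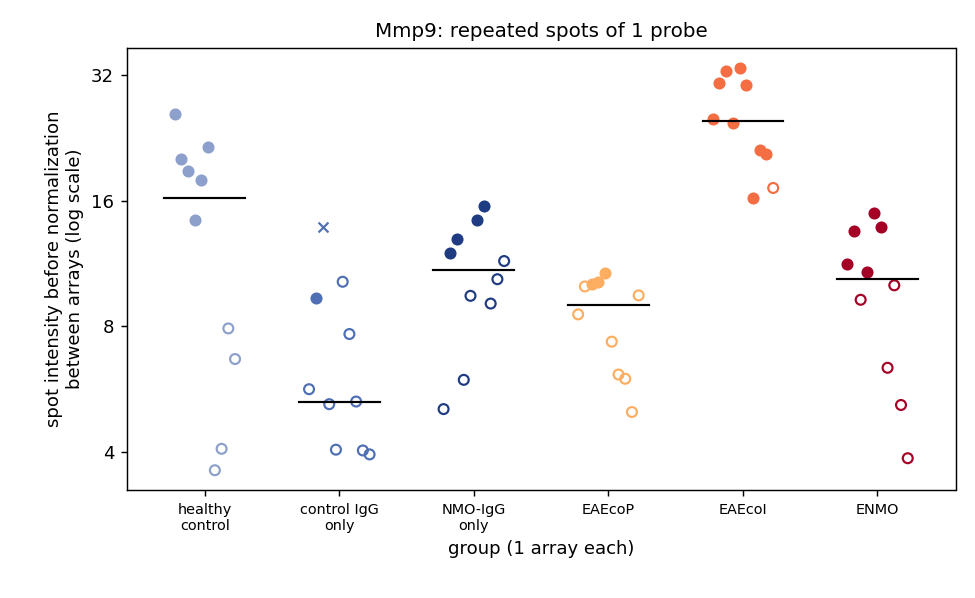
Intensity (log scale) of the repeated Mmp9 spots on each array before the arrays were normalized against each other, with 1 point per spot and the median of the spots used as a line. Filled points were well above background, open points were not, and the cross is a spot marked as an outlier and left out. EAEcoI has a median of 24.9 and the healthy control 16.2, the latter with spots from 3.62 to 25.8.

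Itgam, the alpha chain of the complement receptor Mac-1, reached an NSI of 10.2 in EAEcoP, with 4.78 in EAEcoI and 3.99 in ENMO. The non-T arrays had 2.76 with NMO-IgG only, 1.98 with control IgG only and 2.16 in the healthy control. It was well above background in EAEcoP alone. The fitted log2 difference of all T over all non-T arrays was 1.35 (limma unadjusted p 0.036, adjusted p 0.405), but no fold is given, since the dim arrays allow none above 1. As for Lcn2 and S100a9, EAEcoP had the highest signal of the 6 arrays. EAEcoP was also the highest array for 5 of 9 reference genes, among them Gapdh (658 against 83.4 to 232 on the other arrays) and Actb (547 against 141 to 355). Like Lcn2, Gapdh had all 3 T cell arrays above the non-T arrays. What part the array itself has in the members' signals was not tested.

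Counted by size alone, a fold of more than 2 is common on these arrays, and the members' counts are to be read beside that. Of the 11 probes, 2 to 5 had a fold in each comparison. For all T over all non-T arrays, 1 probe was more than 2-fold higher (Lcn2, background 11.9%) and 1 lower (S100a8 probe a, 13.5%). For ENMO over EAE none of the 3 was past 2-fold in either direction (18.8% of all probes higher, 15% lower), and likewise for ENMO over EAEcoI (15.6% and 14.9%). For ENMO over EAEcoP, Lcn2 and S100a9 were more than 2-fold lower (25.5%) and no member was higher (28.2%). For EAEcoI over EAEcoP, Mpo and Mmp9 were higher (24.3%) and Lcn2 and S100a9 lower (22.4%). In the pairs that differ by T cells, Lcn2 was higher and S100a8 probe a lower in ENMO than with NMO-IgG only (12.1% and 14%). In EAEcoI over control IgG only, Lcn2 alone was past 2-fold (18.5% higher, 17.7% lower). In EAEcoP over the healthy control, Lcn2 and S100a9 were higher (25.9%) and Mmp9 lower (32.4%). For NMO-IgG only over control IgG only, S100a8 probe a alone was past 2-fold, at least 2.56-fold higher (14.1% higher, 12.6% lower). These comparisons share arrays and are not independent.

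The antibody comparisons called no member. In limma's additive fit of T cells and antibody, which has 2 residual degrees of freedom, the lowest adjusted p among the members was 1 for NMO-IgG against control IgG and 0.999 for control IgG against no antibody. Over all 27488 probes 0 (0%) were called in each, with 363 (1.32%) and 672 (2.44%) at an unadjusted p under 0.05. Without T cells, Mpo was 1.14-fold lower with NMO-IgG only than with control IgG only, within the spread of repeated spots. Lcn2, S100a9, Mmp8, Mmp9, Camp and Itgam were not well above background in either of those groups.

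Of 10 neutrophil markers, among them 5 of the members, Mpo and Elane were well above background on all 6 arrays and S100a8, Camp and Mmp8 on none, each taken from its transcript probe. The number above background was 7 in EAEcoP, 6 in EAEcoI and 3 in ENMO, and 4 with NMO-IgG only, 2 with control IgG only and 5 in the healthy control. The groups overlapped. Summed over the 10, the NSI was 454 in EAEcoI, 308 in EAEcoP and 297 in ENMO, and 276 to 366 in the non-T arrays. Mpo and Elane made up most of it. Without them the sum was 165 in EAEcoP, 115 in EAEcoI and 77.4 in ENMO, and 55.2 to 101 in the non-T arrays, so both EAE arrays lay above the non-T arrays and ENMO within them. The share of all spots above background was also highest in EAEcoP and lowest in control IgG only, but ENMO, with a larger share than the healthy control and NMO-IgG only, had fewer markers than either.

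Beyond the members, 18 further granule genes were on the array, and at least 1 array showed 16 of them well above background. Of these, the 3 T cell arrays all lay above the non-T arrays for 2 genes and all below for none. Over the tested probes with a value on all 6 arrays the shares were 6.82% above and 5.16% below. The counts of this list and of those that follow are to be read beside these shares, and are too small to be set apart from them. The median log2 difference over the 12 genes measured on both sides was 0.19, beside -0.25 over all 19002 probes so measured. With bounds included the medians were 0.25 and -0.14, respectively. Lyz2, a lysozyme of macrophages as well as neutrophils, was the highest, at an NSI of 657 in EAEcoP, 126 in ENMO and 93.6 in EAEcoI and of 4.84 to 9.74 in the non-T arrays. It was at least 17.2-fold higher with T cells (limma adjusted p 0.149), in the same order of the 3 T cell arrays as Lcn2. The other gene was the neutrophil defensin Np4, with 1651 in EAEcoI, 1224 in EAEcoP and 781 in ENMO, and 461 to 683 without T cells, 2.02-fold higher (adjusted p 0.488). Bpi, a bactericidal protein of azurophil granules, was the lowest, 2.72-fold lower with T cells (limma adjusted p 0.452). Its ENMO signal (293) lay inside the non-T range of 259 to 493, and EAEcoI (137) and EAEcoP (53.7) lay below it. Elane and Prtn3, serine proteases of the same granules as Mpo, were well above background on all 6 arrays, at 77.6 to 193 and at 98.1 to 129. Ltf, lactoferrin of the specific granules that also hold Lcn2, had 66.7 in EAEcoP, 31.9 in EAEcoI and 9.18 in ENMO, and 8.04 to 14.0 without T cells. No gene of the list passed an adjusted p of 0.05 in limma.

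**Figure D3:**
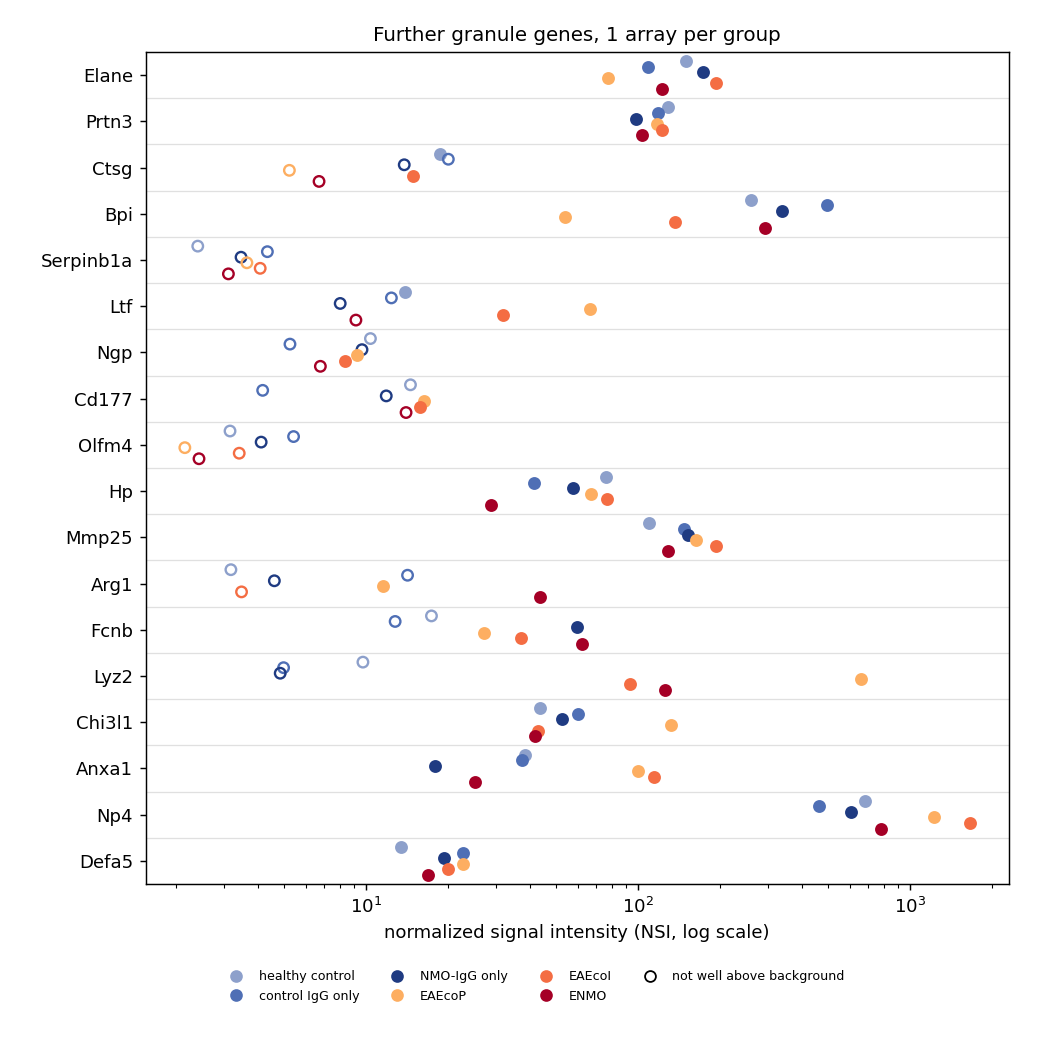
Normalized signal intensity (log scale) of 18 further granule genes, with 1 point per array, coloured by group, filled where well above background. Lyz2 and Np4 are the genes whose 3 T cell arrays all lie above the non-T arrays. Elane and Prtn3 overlap between the groups.

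Among neutrophil surface receptors, 10 of 15 genes were well above background, none had its 3 T cell arrays all above the others and 1 had them all below. The median log2 difference with T cells was -0.12 over the 8 genes measured on both sides, and the medians below are likewise over the genes so measured. Fcgr3, an Fc receptor of neutrophils and macrophages, was the highest at 4.00-fold (limma adjusted p 0.422), with 3080 in ENMO, while a second probe of the same accession gave a log2 difference of 0.86. Another probe that the files call Fcgr3, whose accession RefSeq names Fcgr2a, gave a bound of 0.10. Cxcr2, the receptor for the CXC chemokines that draw neutrophils, was the lowest, 1.96-fold lower (limma adjusted p 0.532), with ENMO (23.7) inside the non-T range. Of 10 genes for the oxidase, 5-lipoxygenase and extracellular traps, 8 were well above background, with a median of -1.12 over 5 genes. Rac2, the oxidase's GTPase, had all 3 T cell arrays above the others at 1.46-fold (adjusted p 0.669). Ncf1, a cytosolic oxidase subunit, had all 3 below, 5.03-fold lower (adjusted p 0.178). Alox5, the 5-lipoxygenase that starts leukotriene synthesis, was not well above background on any array.

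Of 13 neutrophil chemoattractants and growth factors, 11 were well above background, with a median of -0.47 over 9 genes. Il17a, the cytokine of Th17 cells, stood at 146 for ENMO, 27.9 for EAEcoI and 26.5 for EAEcoP, and at 11.6 to 17.5 without T cells. Its T cell arrays all lay above the others, at 3.35-fold (limma adjusted p 0.403). Il6 was the lowest, 2.63-fold lower (limma adjusted p 0.489), with ENMO (39.4) inside the non-T range. Of 13 receptors of alarmins and lipocalin and other alarmins, 11 were well above background. The median was -0.63 over 7 genes (-0.36 with 1 bound), and there was no gene whose arrays did not overlap. Tlr2 was the highest, at least 3.66-fold (adjusted p 0.299), and Slc22a17, a receptor for lipocalin-2, the lowest. Slc22a17 gave an NSI of 2613 in EAEcoI, 4277 in EAEcoP and 16581 in ENMO, and of 16547 to 22981 without T cells. It was 3.44-fold lower with T cells (adjusted p 0.389), with ENMO inside the non-T range.

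Of the 6 metalloproteinase inhibitors all were well above background. The median was 0.18 over 5 genes (0.22 with 1 bound), and there was no gene whose arrays did not overlap. Timp1, which binds Mmp9, had 154 to 190 with T cells and 130 to 165 without. Reck was the highest at no less than 1.66-fold (limma adjusted p 0.6), and Timp2 the lowest at 1.77-fold lower (adjusted p 0.732), with 621 in EAEcoI, 1022 in EAEcoP and 9700 in ENMO. Among the other S100 genes 9 of 11 were well above background, with a median of -1.004 over 7 genes. For 1 gene the T cell arrays were all lower. S100a10 was the highest at 1.98-fold (adjusted p 0.686) and S100a1 the lowest at 2.90-fold lower (adjusted p 0.463). For both, ENMO had the highest signal of the 6 arrays, unlike S100a9.

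Markers of other cells that make Lcn2, Mmp9 or Itgam had the following values. Of 14 microglia and macrophage genes 13 were well above background and 1 had its T cell arrays all above the others. The median was -0.23 over 12 genes (-0.17 with 1 bound). Tyrobp, a signalling adaptor, was the highest at 3.32-fold (limma adjusted p 0.399) and Tmem119 the lowest at 2.29-fold lower (limma adjusted p 0.592). The Tmem119 direction rested on EAEcoI (12.9) and EAEcoP (18.7), since ENMO had its highest signal of the 6 arrays (127 against 50.5 to 113 without T cells). Over the 13 genes with a value on all 6 arrays the summed NSI was 3505 to 16000 with T cells and 2817 to 4346 without. Without Tyrobp it was 989 to 1962 and 1465 to 1862, so the groups overlapped both ways. Of 8 astrocyte genes 6 were well above background and none on all 6 arrays. Their summed NSI was 136 to 588 with T cells and 124 to 288 without. Single genes made up most of the highest sums, Glul 499 of the 588 in EAEcoI and Aldh1l1 200 of the 288 with NMO-IgG only. Glul was the highest astrocyte gene, at least 8.78-fold (limma adjusted p 0.237), and Aldh1l1 the lowest, 2.18-fold lower (limma adjusted p 0.588). Of 11 T cell genes 8 were well above background, with a median of -0.29 over 6 genes. Cd247 was highest at 5.78-fold (limma adjusted p 0.38) and Ptprc lowest at 1.57-fold lower (adjusted p 0.639). The part of these cells in the signals of Lcn2, Mmp9 and Itgam was not tested.

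Markers of blood and of other cord cells, which set what else the pooled sections held, gave medians, over the genes measured on both sides, of -0.54 for 4 erythroid genes, -0.12 for 5 platelet genes, 0.46 (0.43 with 1 bound) for 7 neuronal genes and 0.33 for 7 genes of oligodendrocytes and Schwann cells. The 6 reference genes so measured had a median of 0.31 (0.71 with 1 bound). The highest and lowest of these lists were Slc4a1 (log2 difference 0.51) and Epb42 (-0.91), Gp9 (2.13) and Gp1bb (-1.81), Slc17a6 (1.34) and Chat (0.09), Mag (2.01) and Mog (-1.82), and Gapdh (1.297) and Tbp (-0.59). On all 6 arrays 3 of the neuronal and 5 of the myelin genes were well above background. No gene of these lists passed an adjusted p of 0.05 in limma.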

How the data were processed

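Spinal cord RNA of 6 groups was amplified for 1 round and hybridised with Cy3 to 44K whole rat genome arrays, 1 array of pooled rats per group, per the labels and the methods of the study. For each array the authors deposited the spot table of Agilent Feature Extraction 10.1.1.1, from which the background-subtracted, detrended intensity was used. They also deposited 1 linear intensity per target, which equals the spot tables for all 32374 targets compared, within 0.1%. Neither is normalized between arrays.

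Outlier spots were dropped, log2 intensities were averaged for each probe, and the arrays were quantile-normalized, as the methods name, over 41012 probes. Folds are differences of mean log2 NSI. The limma package (3.58.1, R 4.3.3) was fitted to the 27488 probes that at least 1 array showed well above background, and a Benjamini-Hochberg adjusted p under 0.05 was the threshold. A gene of a list is its brightest probe. Tested on simulated data for all T against all non-T (27268 probes), limma called 0 of 68 probes changed by a log2 of 1, 3 of 66 changed by 2 and 60 of 66 changed by 4, with 8 false calls. Precision is limited by the number of arrays.

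The genes and the 15 lists were chosen with earlier results of these data known. Named are all members, the highest and lowest gene of each list with a fold, bounds included, by all T over all non-T, any gene past the threshold, Alox5, Timp1 and Slc22a17, and the 3 genes most like Mpo. Np4, Elane, Prtn3 and Ltf were chosen after their values were seen. Alternatives were 75th percentile scaling, normexp with an offset of 50, outlier spots kept, other filters on dim probes, slide or antibody as a block, each array left out, ratios of mean NSI, and the deposited values per target.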

Additional observations from a re-analysis of the deposited data

Results flagged for a closer look

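For Mpo the difference between a T cell array and its non-T array varied in sign over the antibody backgrounds. Its log2 difference was -0.03 for ENMO over NMO-IgG only, 0.36 for EAEcoI over control IgG only and -0.44 for EAEcoP over the healthy control. Each is 1 array against 1, and the difference between them was not tested. All 3 are within 1 SD of a difference between repeated spots of probes at this signal (0.728 for an NSI of 20 to 100 and 0.582 from 100).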

How the results depend on the processing

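The log2 difference of Lcn2 between all T and all non-T arrays kept its direction in 14 of 14 settings, from 0.99 to 3.38, and its adjusted p, from 0.117 to 0.761, passed the threshold in none of those with a test. The number of member probes whose T cell arrays all lay above the non-T arrays was 1, and 0 where only probes well above background on all 6 arrays were kept, which removes Lcn2. Leaving out 1 array at a time it was 1 to 2, the 2 without ENMO. The number of probes called for all T against all non-T was 0, and 0 to 213 with 1 array left out, with 213 without ENMO and 3 without EAEcoI. For NMO-IgG against control IgG it was 0, 53 with the slide as a block and 0 to 252 with 1 array left out, with 7 without EAEcoI and 252 without control IgG only. For control IgG against no antibody it was 0, 40 with the slide as a block and 0 to 310 with 1 array left out, with 60 without EAEcoI and 310 without control IgG only. The cause was not tested. Mpo changed sign to 0.25 without EAEcoP, 0.06 without control IgG only and 0.034 as a ratio of mean NSI, and its lowest value was -0.33, without EAEcoI. The direction of Lcn2 in ENMO over EAE depended on the EAE array, -2.07 against EAEcoP alone and 0.41 against EAEcoI alone. S100a8 (probe a), S100a9 and Mmp9 kept their directions in every setting that gave a value, but their sizes moved, from -2.53 to -0.27, from 0.14 to 1.76 and from -0.77 to -0.05. Replicates could not be paired because the labels give no replicate numbers and each group has 1 array, so arrays were paired by antibody only. With the antibody that T and non-T arrays share as a block, limma called 0 probes (2868 at an unadjusted p under 0.05) and Lcn2 had an adjusted p of 0.212. Signal over background limits Camp, Mmp8 and the S100a8 transcript, whose probes allow no fold.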
